A study of Homo sapiens with 6 samples.

Results

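The genes described here are 49 human genes of cell division, from the cyclins and E2F factors of the G1/S transition to the kinases, kinesins and kinetochore proteins of mitosis. They were chosen by name, with earlier results of these data known, and split into 21 G1/S genes and 28 G2/M genes. A named probe set was found for 43 of the 49, among 14884 genes with a named probe set. All 21 G1/S genes and 22 of the 28 G2/M genes were measured. CENPE, CENPF, TPX2, UBE2C, DLGAP5 and ASPM, all on the G2/M list, were not analysed here. Each measured member had 1 probe set.

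Total RNA was measured on 6 whole-transcript arrays. Of these, 3 are labelled as cells overexpressing miR-196b, and 3 as an empty vector control. The design text gives the line as HCT116, stably transduced in both groups. The titles and cell line fields spell it HTC116, and the titles of the first group read miR1966OE. HCT116 is an established human colorectal carcinoma line, and both groups carry a vector and were grown in the same medium. The vector's promoter is not named in the sources used here. The replicates are given as biological, without saying how many separate transductions they stand for, and the spread behind each p-value is that between these samples.

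Dividing cells pass from G1, where cyclin D and cyclin E kinases inactivate the retinoblastoma protein and free E2F factors, into S phase, where licensed MCM helicases unwind DNA. Genes of this step are transcribed by E2F. Genes of G2 and mitosis are switched on later by MYBL2 and FOXM1 acting through promoter elements called CHR, often beside CCAAT boxes, and mRNA levels of both sets are widely read as marks of proliferation. In bulk RNA, a different share of cells in a phase and a different RNA level per cell cannot be told apart.

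The microRNA named in the labels, miR-196b-5p, and its relative miR-196a-5p share the seed, bases 2 to 8, shown in capitals. The mature sequences (RefSeq, GRCh38.p14) are printed because the labels name miR-196b. These sequences differ at 1 of 22 positions, A12C, counted from the 5′ end with the miR-196a base first.
hsa-miR-196b-5p: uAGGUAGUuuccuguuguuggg
hsa-miR-196a-5p: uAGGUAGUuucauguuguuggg
The mature miR-196b-5p lies at chr7:27169528-27169549 on the minus strand. Probe sequences were not used here, so which part of a microRNA transcript a probe set reads was not tested. The MIR196B probe set had a log2 change of 0.08 in the arrays labelled miR-196b minus control (95% interval -0.16 to 0.31, limma adjusted p = 0.819), while MIR196A2 had 7.55. Directions below are those of the arrays as labelled.

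Arrays correlated at r = 0.994 to 0.995 within groups and 0.992 to 0.994 between groups over named probe sets, which are not independent replicates. Of 6 measured colon epithelial markers, 3 were higher and 3 lower and 0 passed the test, with group means of 3.14 (CEACAM5) to 11.3 (KRT18) on the log2 scale. The groups did not overlap for KRT18 at the brighter of its 2 probe sets, with a log2 change of -0.22 (limma adjusted p = 0.405). CEACAM5 and VIL1 (log2 changes 0.074 and 0.056) were as dim as markers of other cell types. The 8 measured markers of fibroblasts, blood and endothelium had group means of 2.00 (LUM) to 7.71 (CD68), and 0 passed. The files hold no background level, so detection was not tested.

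Neither the G1/S nor the G2/M genes held a member that differed between the groups by the test, and the interval of each was narrow. No measured member passed the test over all named probe sets (0 of 43, limma adjusted p = 0.417 to 0.999), against 0.0559% of all 16098 named probe sets. At an unadjusted p below 0.05 there were 2 members, CCNE1 and CCND1, both lower in the arrays labelled miR-196b. They make up 4.65% of the members, against 9.86% of all genes, of which 5.75% were higher and 4.11% lower. The groups did not overlap for 6 members, or 14.0%, against 17.5% of all genes. For 3 of the 6 all labelled arrays lay above control, against 10.3% of all genes, and for 3 below, against 7.24%. The change was above 0 for 30 of the 43 members (69.8%), against 52.2% of all genes, and for 23 of the 43 after a repeated quantile normalization. Over the 3736 genes at least as bright as the dimmest member, the groups did not overlap for 26.5%. Of these 3736 genes, 8.78% had an unadjusted p below 0.05 in limma and 55.8% a change above 0. The log2 changes of the 43 members ran from -0.21 (CCNE1) to 0.14 (CDT1), with a median of 0.025, against a median of 0.0076 over all genes.

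The intervals give the range of change that the data allow for each member taken singly, not the size of change that the adjusted test could miss. The 95% interval of each of the 43 members, taken singly in the limma fit, stayed within 1.34-fold in either direction, the widest being that of AURKA. For 27 of the 43 it stayed within 1.2-fold. The interval of 41 members included 0. The median within-group SD of the members was 0.0610 in the arrays labelled miR-196b and 0.0538 in control, against 0.117 in the arrays labelled miR-196b and 0.108 in control over all genes (log2, n = 3 arrays per group). Over the 3736 genes at least as bright as the dimmest member it was 0.0698 in the arrays labelled miR-196b and 0.0610 in control. None of the members was among the dimmest 40% of probe sets.

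**Figure D1:**
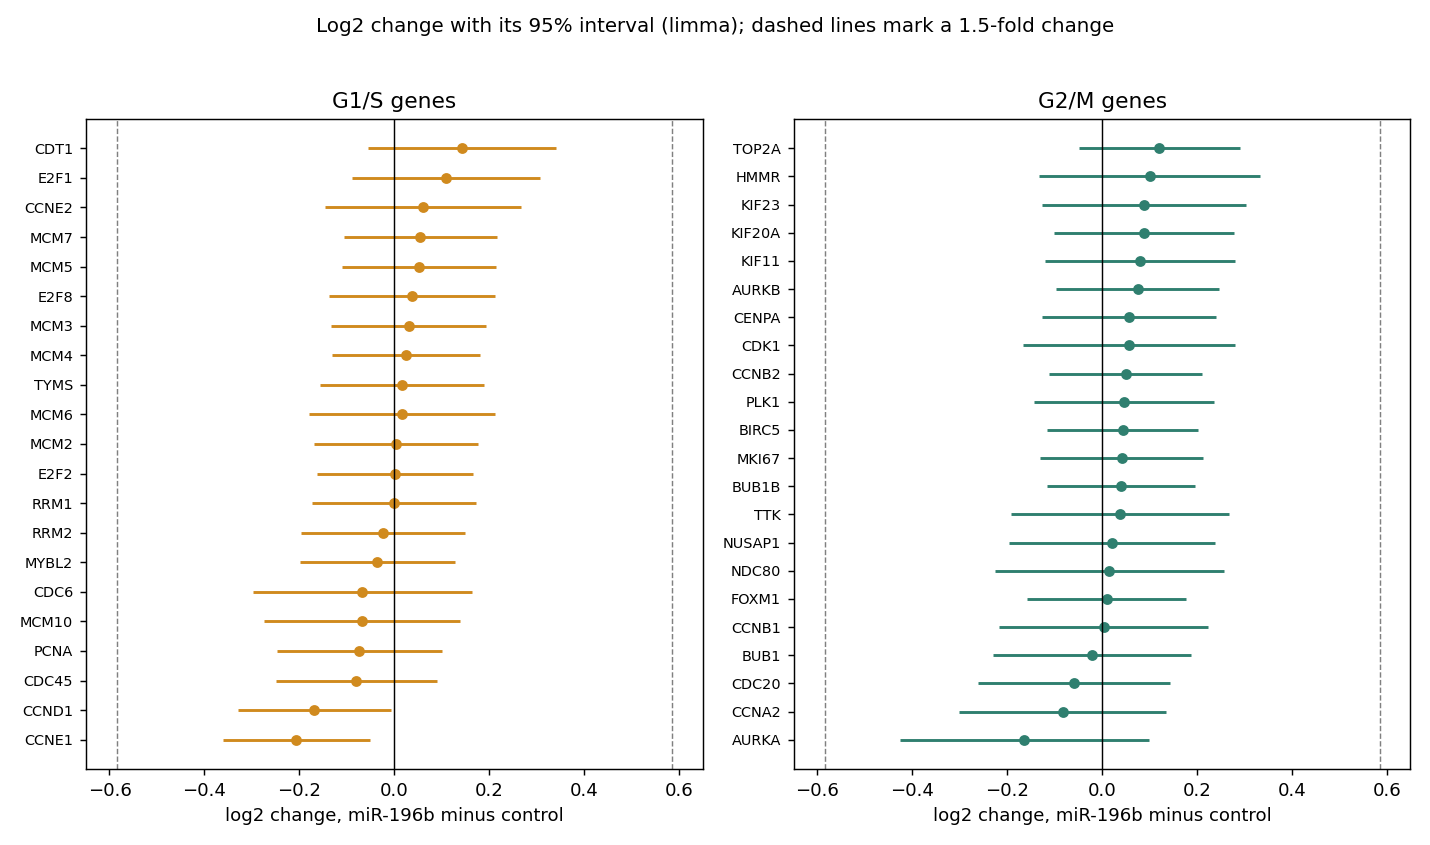
Log2 change (x axis, arrays labelled miR-196b minus control) of each measured member with its 95% interval from limma, G1/S genes on the left and G2/M genes on the right, ordered by change. The intervals of CCNE1 and CCND1 lie below 0, the other 41 cross 0, and all 43 lie inside the dashed lines at 1.5-fold.

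The G1 and G1/S cyclins gave the smallest p-values among the members. CCNE1, cyclin E1, activates CDK2 at the entry into S phase. Its log2 levels were 8.89, 8.89 and 8.91 in the arrays labelled miR-196b, against 9.08, 9.11 and 9.12 in control. All 3 labelled arrays lay below all 3 control arrays, with narrow spread in both groups. The log2 change was -0.21 with an SE of 0.07 (95% interval -0.36 to -0.052), which did not pass over all genes (limma adjusted p = 0.417).

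CCND1, cyclin D1, couples growth signals to CDK4 and CDK6. Its log2 levels were 9.80, 9.89 and 9.85 in the arrays labelled miR-196b, against 10.00, 10.04 and 10.00 in control. Here too the groups did not overlap, and the log2 change was -0.17 with an SE of 0.07 (95% interval -0.33 to -0.0076, limma adjusted p = 0.491). For both cyclins the exact permutation p was 0.1, the lower limit of this design. CCNE2, cyclin E2, had a log2 change of 0.061 (95% interval -0.15 to 0.27), so the lower values of CCNE1 had no counterpart of that size in its paralog, although the difference between the paralogs was not tested.

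Of the E2F and MYB transcription factors that drive these genes, E2F1 had log2 levels of 7.66, 7.62 and 7.67 in the arrays labelled miR-196b, against 7.40, 7.64 and 7.58 in control. The groups overlapped, and control replicate 1 alone set most of the difference. The log2 change was 0.11 with an SE of 0.08 (limma adjusted p = 0.692), and 0.042 without that array. E2F8, a repressor of the family, had 0.038, E2F2 0.00096 and MYBL2, the B-MYB factor of the mitotic programme, -0.035, each with a 95% interval that held 0.

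Origin licensing and firing factors had no common direction. CDT1 loads the MCM helicase onto origins together with CDC6. Its log2 levels were 9.51, 9.51 and 9.69 in the arrays labelled miR-196b, against 9.45, 9.47 and 9.35 in control. The groups did not overlap, with labelled replicate 3 the highest and control replicate 3 the lowest (log2 change 0.14, SE 0.08, limma adjusted p = 0.603). Without labelled replicate 3 the change was 0.083.

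CDC45, which activates the helicase, had log2 levels of 7.60, 7.698 and 7.697 in the arrays labelled miR-196b, against 7.75, 7.698 and 7.78 in control. The gap between the groups was nearly nil, and the log2 change was -0.080 (SE 0.07, limma adjusted p = 0.740). CDC6 had -0.067 and MCM10, an initiation factor, -0.068, and both had overlapping groups.

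The MCM2 to MCM7 genes encode the subunits of 1 ring-shaped helicase. Their log2 changes lay within 0.0039 (MCM2) and 0.055 (MCM7), with overlapping groups for each. All 6 were above 0 on the deposited scale, 5 after median centring and 4 after a repeated quantile normalization, so their sign depends on the scaling. The interval of MCM4 was among the narrowest of the members, from -0.13 to 0.18.

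PCNA, the sliding clamp of the replication fork, had log2 levels of 10.71, 10.80 and 10.64 in the arrays labelled miR-196b, against 10.80, 10.80 and 10.77 in control. Labelled replicate 2 lay level with the highest control array and the other 2 labelled arrays below all control arrays (log2 change -0.074, SE 0.07, limma adjusted p = 0.768). The enzymes of nucleotide supply were flat, with 0.017 for TYMS, thymidylate synthase, -0.00023 for RRM1 and -0.023 for RRM2, the ribonucleotide reductase subunits. Over the 21 G1/S genes, the median log2 change was 0.0039, with 12 genes higher and 9 lower. Median centring gave 10 higher and 11 lower, and a repeated quantile normalization 9 higher and 12 lower.

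**Figure D2:**
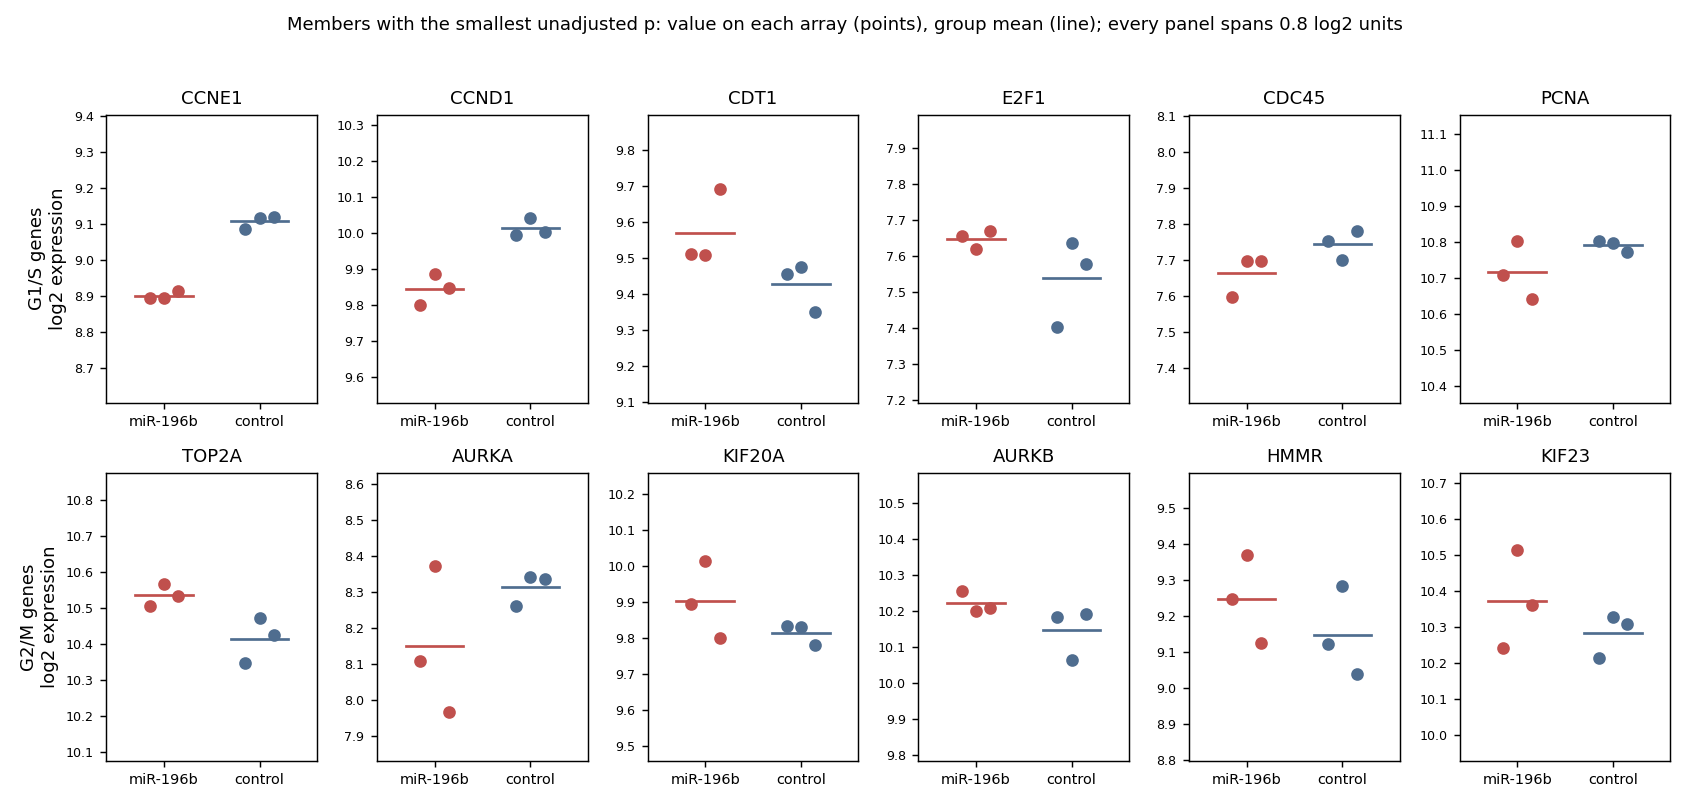
Log2 expression on each array (points) and group mean (lines) for the 6 G1/S genes (top) and 6 G2/M genes (bottom) with the smallest unadjusted p, arrays labelled miR-196b left of control, every panel spanning the same range of 0.8. The groups of CCNE1 and CCND1 lie apart, while the arrays of AURKA, KIF23 and HMMR within a group differ by more than the group means do.

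The 22 measured G2/M genes had a median log2 change of 0.042, and none reached an unadjusted p below 0.05. The change was above 0 for 18 and below for 4. The share above 0 was 81.8%, against 52.2% of all genes and 55.8% of genes at least as bright as the dimmest member. That excess on the higher side was not stable in size. It came to 14 higher and 8 lower after a repeated quantile normalization (63.6%, against 49.4% of all genes), and 17 and 5 after median centring (77.3%, against 50.0%). With each array left out, 13 to 18 were higher and the median ran from 0.012 to 0.076. The lowest count was 13 and 9 without labelled replicate 2 (59.1%, against 51.8% of all genes), with a median of 0.012. Without control replicate 1 it was 14 and 8 (63.6%, against 50.7%), with a median of 0.016.

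TOP2A, the topoisomerase that untangles chromosomes before mitosis, had the smallest p of the G2/M list. Its log2 levels were 10.51, 10.57 and 10.54 in the arrays labelled miR-196b, against 10.35, 10.47 and 10.43 in control. The groups did not overlap, and the log2 change was 0.12 with an SE of 0.07 (95% interval -0.048 to 0.29, limma adjusted p = 0.611). MKI67, which encodes the proliferation antigen Ki-67, had log2 levels of 11.74, 11.74 and 11.64 in the arrays labelled miR-196b, against 11.61, 11.68 and 11.71 in control. Its groups overlapped, and its log2 change was 0.041 (95% interval -0.13 to 0.21).

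The cyclins of mitosis and their kinase stayed near 0. CCNB1, cyclin B1, had log2 levels of 9.75, 9.62 and 9.44 in the arrays labelled miR-196b, against 9.60, 9.60 and 9.60 in control. The labelled arrays lay on both sides of the control arrays, and the log2 change of 0.0033 (95% interval -0.22 to 0.22) turned to -0.0043 after median centring. CCNB2 had 0.049, CDK1, the partner of both B cyclins, 0.057, and CCNA2, cyclin A2, -0.083, each with overlapping groups. FOXM1, the transcription factor of this programme, had log2 levels of 9.17, 9.29 and 9.22 in the arrays labelled miR-196b, against 9.21, 9.25 and 9.19 in control, a change of 0.0097 (95% interval -0.16 to 0.18), or -0.013 after a repeated quantile normalization. CDC20, which activates the anaphase-promoting complex, had -0.060.

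The mitotic kinases differed among themselves in sign. AURKA, which matures the spindle poles, had log2 levels of 8.11, 8.37 and 7.97 in the arrays labelled miR-196b, against 8.26, 8.34 and 8.34 in control. Labelled replicate 2 lay above all control arrays and the other 2 labelled arrays below them. The change of -0.16 (SE 0.11, limma adjusted p = 0.650) came with the largest within-group SD of any member, 0.206 in the arrays labelled miR-196b. The change was -0.28 without labelled replicate 2 and -0.072 without labelled replicate 3.

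AURKB, the kinase of the chromosomal passenger complex, had log2 levels of 10.26, 10.20 and 10.21 in the arrays labelled miR-196b, against 10.18, 10.07 and 10.19 in control. The groups did not overlap, by a narrow margin (log2 change 0.075, SE 0.07, limma adjusted p = 0.758). BIRC5, survivin, of the same complex, had 0.044. The polo-like kinase PLK1 had 0.047, and the checkpoint kinases BUB1, BUB1B and TTK had -0.021, 0.040 and 0.038.

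The 3 kinesins among the members, motor proteins of the spindle and midzone, had log2 changes above 0, and none passed the test. They stayed above 0 after median centring and after a repeated quantile normalization. Kinesins on the list of other mitotic genes differed in sign, with log2 changes from -0.060 to 0.15. KIF20A had log2 levels of 9.89, 10.01 and 9.80 in the arrays labelled miR-196b, against 9.83, 9.83 and 9.78 in control (log2 change 0.088, SE 0.08, limma adjusted p = 0.744). KIF23 had 10.24, 10.51 and 10.36 in the arrays labelled miR-196b, against 10.21, 10.33 and 10.31 in control (0.089, SE 0.09, limma adjusted p = 0.773). Both overlapped between groups and peaked in labelled replicate 2, without which their changes were 0.033 and 0.018. KIF11 had 0.079.

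HMMR, a spindle-associated hyaluronan receptor, had log2 levels of 9.25, 9.37 and 9.13 in the arrays labelled miR-196b, against 9.12, 9.28 and 9.04 in control. The groups overlapped (log2 change 0.10, SE 0.10, limma adjusted p = 0.762), and the change was 0.039 without labelled replicate 2 and 0.17 without control replicate 2. The kinetochore genes CENPA and NDC80 had 0.057 and 0.015, and NUSAP1, which binds spindle microtubules, 0.021.

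Averages over the gene groups differed more between single arrays than between the groups of arrays. Averaged over the 22 G2/M genes, the deviation from each gene's mean of 6 arrays was 0.0084, 0.086 and -0.050 in the arrays labelled miR-196b, against -0.057, 0.0096 and 0.0030 in control (log2). Labelled replicate 2 was the highest array for 14 of the 22, against 2548 of all 14884 named genes. Control replicate 1 was the lowest for 9 of the 22, against 3327 of all 14884. For the 21 G1/S genes the deviations were -0.037, 0.029 and -0.0040 in the arrays labelled miR-196b, against -0.025, 0.0052 and 0.032 in control. Over all named genes the deviations ran from -0.0084 (control replicate 1) to 0.0048 (labelled replicate 1) across the 6 arrays.

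The balance of the gene groups did not separate the arrays. The G2/M deviation minus the G1/S deviation was 0.045, 0.057 and -0.046 in the arrays labelled miR-196b, against -0.031, 0.0044 and -0.029 in control. Labelled replicate 3 lay below every control array and the other 2 above them.

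**Figure D3:**
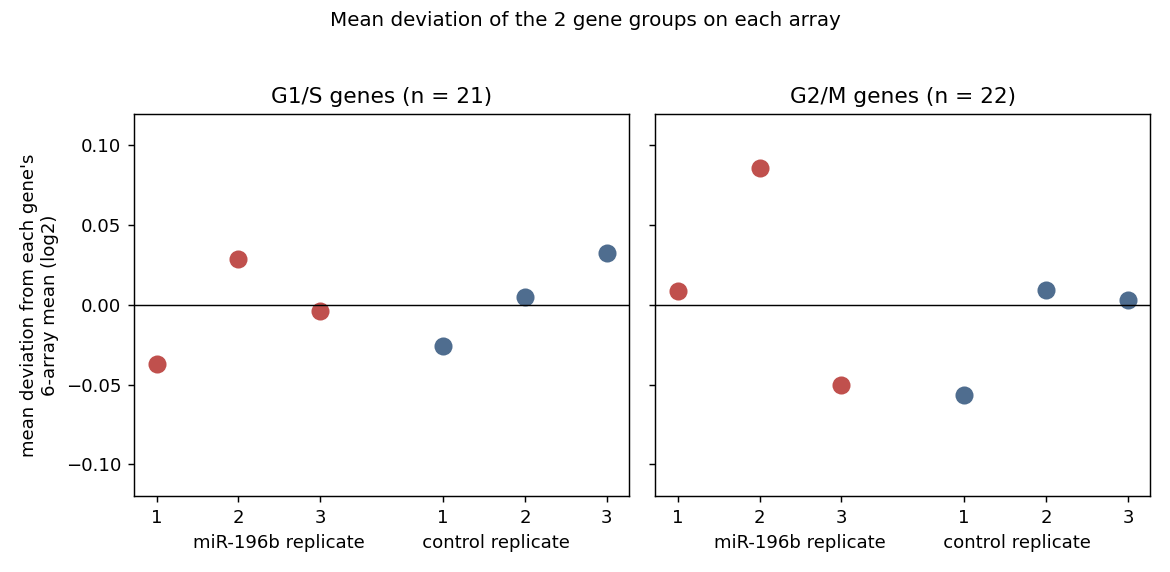
Mean deviation (log2, y axis) of the 21 G1/S genes and the 22 G2/M genes from each gene's mean of 6 arrays, 1 point per array, arrays labelled miR-196b in red and control in blue. Points of the groups overlap in both panels, with labelled replicate 2 highest (0.086) and control replicate 1 lowest (-0.057) for the G2/M genes.

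The members' log2 changes spanned a narrower range than those of all named genes, which include dim probe sets. The lower and upper quartiles of the log2 change were -0.089 and 0.10 over all named genes, and -0.055 and 0.088 over the 3736 genes at least as bright as the dimmest member. For the G1/S genes they were -0.067 and 0.038, and for the G2/M genes 0.011 and 0.071. This is a description of these 6 arrays, since members share cells, arrays and regulation.

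**Figure D4:**
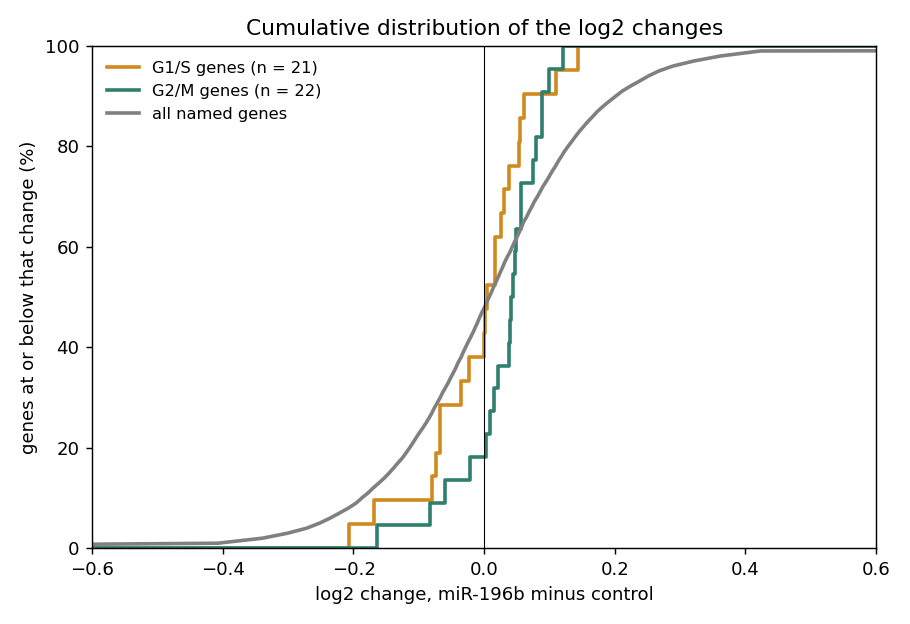
Cumulative share (y axis, percent) of genes at or below a given log2 change (x axis, arrays labelled miR-196b minus control) for G1/S genes, G2/M genes and all named genes. Both member curves are steeper than that of all genes, and every member lies within -0.21 and 0.14.

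The promoters of the members differ as the gene groups do. Such genes are known to be under E2F or CHR control, as described above, so the shares below are no independent test. RefSeq promoters of GRCh38.p14, from 250 bases before to 50 after the gene start, were at hand for 16 G1/S genes and 22 G2/M genes. An E2F site, spelled TTTCCCGC, TTTCGCGC, TTTGCCGC or TTTGGCGC on either strand, was in 10 of the 16 G1/S promoters (62.5%) and 3 of the 22 G2/M promoters (13.6%), against 3.33% of 27305 promoters. A CHR element, spelled TTTGAA on either strand, was in 1 of the 16 (6.25%) and 16 of the 22 (72.7%), against 15.4%. The CCAAT box, spelled CCAAT on either strand, was in 10 of the 16 and 19 of the 22, against 35.7%. Both a CHR element and a CCAAT box were in 14 of the 22 (63.6%), against 6.08% of all promoters.

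The 120 bases before the start of 3 G1/S genes named above show the E2F site, in capitals. They lie at chr20:33686386-33686505 on the minus strand (E2F1), chr16:88803669-88803788 on the plus strand (CDT1) and chr20:5126623-5126742 on the minus strand (PCNA).
E2F1: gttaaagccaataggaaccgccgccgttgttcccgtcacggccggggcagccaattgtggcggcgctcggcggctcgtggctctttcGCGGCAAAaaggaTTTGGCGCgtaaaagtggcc
CDT1: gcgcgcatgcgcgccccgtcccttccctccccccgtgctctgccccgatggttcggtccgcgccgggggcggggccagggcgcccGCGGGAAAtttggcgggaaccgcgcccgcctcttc
PCNA: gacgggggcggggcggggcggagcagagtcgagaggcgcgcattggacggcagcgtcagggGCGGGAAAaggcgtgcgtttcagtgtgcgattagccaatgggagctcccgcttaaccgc

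The same stretch of 4 G2/M genes shows CHR elements and CCAAT boxes, in capitals. They lie at chr10:128126424-128126543 on the minus strand (MKI67), chr15:59105026-59105145 on the plus strand (CCNB2), chr15:69414229-69414348 on the plus strand (KIF23) and chr5:163460512-163460631 on the plus strand (HMMR). In MKI67 a CHR element and a CCAAT box on the other strand overlap, and in HMMR CCAAT boxes of both strands overlap.
MKI67: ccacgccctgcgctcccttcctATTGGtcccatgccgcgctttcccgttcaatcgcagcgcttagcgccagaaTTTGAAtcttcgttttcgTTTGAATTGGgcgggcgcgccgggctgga
CCNB2: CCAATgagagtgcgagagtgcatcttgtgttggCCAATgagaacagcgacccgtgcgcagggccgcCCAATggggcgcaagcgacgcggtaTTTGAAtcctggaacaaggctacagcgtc
KIF23: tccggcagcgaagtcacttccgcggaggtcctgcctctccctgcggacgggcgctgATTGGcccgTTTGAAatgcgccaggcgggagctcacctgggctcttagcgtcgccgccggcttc
HMMR: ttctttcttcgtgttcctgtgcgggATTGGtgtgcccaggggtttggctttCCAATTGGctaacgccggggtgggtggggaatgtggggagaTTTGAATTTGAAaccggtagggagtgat

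**Figure D5:**
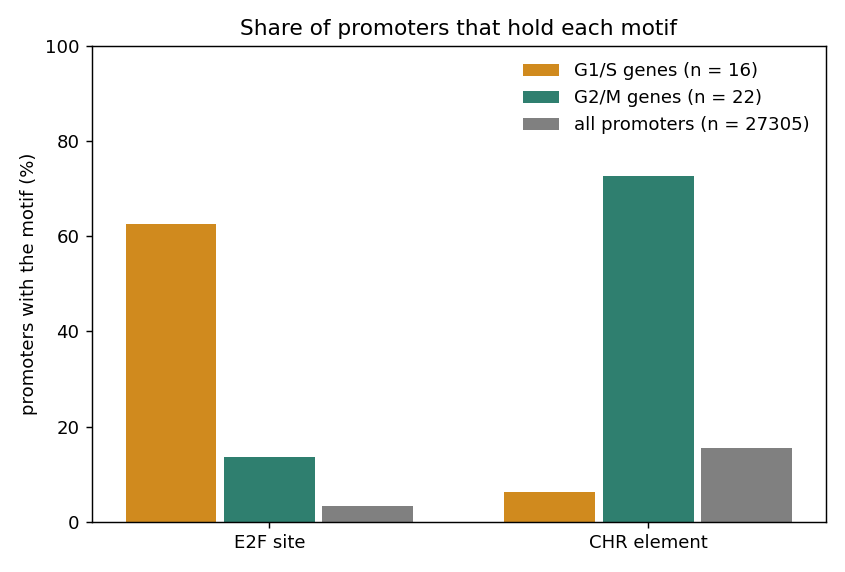
Share of promoters (y axis, percent) that hold an E2F site or a CHR element on either strand, for 16 G1/S genes, 22 G2/M genes and all 27305 promoters. The E2F site is in 62.5% of the G1/S promoters and the CHR element in 72.7% of the G2/M promoters, against 3.33% and 15.4% of all.

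The motif classes did not mark members that passed the test, since none did. The 10 G1/S genes with an E2F site had a median log2 change of 0.017, with 8 above 0, or 5 after a repeated quantile normalization. The 6 with a promoter and no such site, CCNE1, CDC45, MCM10, MYBL2, RRM1 and RRM2, had a median of -0.052 and were all below 0, the nearest being RRM1 at -0.00023. The 13 measured G2/M genes with a CHR element had a median of 0.049, with 12 above 0. The 5 with a promoter and no TTTGAA had a median of 0.0033, with 3 above 0. That last median is the value of CCNB1, whose sign turned after median centring. The CHR split was not repeated on other scalings. A match is a description of letters in this window, not of a bound site.

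Other genes of the same pathway were read from 5 lists of 156 genes, of which 105 were measured, and 0 passed the test (limma adjusted p = 0.347 to 0.999). At an unadjusted p below 0.05 there were 3 higher and 1 lower, or 3.81%, against 9.86% of all genes. CDK6, like CDK4 a G1 kinase that binds cyclin D1, had the smallest p, while CDK4 had a log2 change of -0.011. The log2 levels of CDK6 were 7.85, 8.01 and 7.90 in the arrays labelled miR-196b, against 8.18, 8.30 and 8.23 in control. The groups did not overlap, and the log2 change was -0.32 with an SE of 0.08 (limma adjusted p = 0.347). CDC25C and CDC25B, phosphatases that activate CDKs, had 0.20 and 0.14 with groups that did not overlap, and 0 of 16 measured genes of that list passed.

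TFDP2, a dimer partner of E2F factors, had log2 levels of 8.53, 8.47 and 8.59 in the arrays labelled miR-196b, against 8.20, 8.31 and 8.25 in control. Its groups did not overlap (log2 change 0.28, SE 0.07, limma adjusted p = 0.360). LIN9, a subunit of the complex that joins MYBL2, had -0.18, and the MYB family factor MYBL1 0.15, and 0 of 9 measured E2F, DREAM and MYB genes passed.

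The retinoblastoma family, which holds E2F in check, had log2 changes of 0.16 (RBL2), 0.11 (RB1) and 0.041 (RBL1), above 0 also after median centring and a repeated quantile normalization. All 4 measured genes of the list of CDK inhibitors and pocket proteins were above 0 and 0 passed. CDKN1A, the p53-induced CDK inhibitor, was among the 6 genes of that list not analysed here.

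Of 19 measured other replication genes, 9 were higher and 10 lower with a median of -0.026, and 0 passed. The repair nuclease EXO1 had -0.16, the replisome subunit GINS1 -0.14 and WDHD1, which tethers polymerase alpha, 0.10. Of 57 measured other mitotic genes, 42 were higher and 15 lower with a median of 0.055, and 0 passed. The share higher was 73.7%, against 52.2% of all genes. CKAP2, a spindle protein, had 0.21, FBXO5, an inhibitor of the anaphase-promoting complex, 0.20, and the centrosomal kinase NEK2 0.18. The mitotic count was 41 higher and 16 lower after median centring (71.9%, against 50.0% of all genes). It was 37 and 20 after a repeated quantile normalization (64.9%, against 49.4%). Without labelled replicate 2 it was 35 and 22 (61.4%, against 51.8% of all genes), with a median of 0.014. The G2/M members had their highest average on that same array.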

How the data were processed

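Expression was measured on 6 whole-transcript arrays, 3 labelled miR-196b and 3 control. The deposited values are log2 expression, 1 per probe set and array, made by the authors with RMA and Partek 6.6, per the submitters' processing notes, which list neither order nor settings. The log base was taken as that of RMA, whose quantile normalization removes differences in overall level. The genome build is not given in the sources used here.

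Of 53617 probe sets, 16098 had 1 gene symbol (14884 genes) and were used. The other 37519 had no symbol or several, and these were not counted apart. Symbols came from the platform annotation, updated through gene identifiers to GRCh38.p14. Members were read at the brightest probe set by mean of 6 arrays. All named probe sets were fitted with limma 3.58.1 in R 4.3.3 (lmFit, eBayes, 3.23 prior degrees of freedom), with Benjamini-Hochberg adjustment at 0.05, two-sided. Precision is limited by the number of arrays. The fit was tested on simulated data.

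Members and lists were chosen with earlier results of these data known. Values in every array are given for the 6 members with the smallest p in each group and for MKI67, PCNA, CCND1, CCNB1, E2F1 and FOXM1, and for the 2 other pathway genes with the smallest p, CDK6 and TFDP2, chosen after their values were seen. From each other list up to 3 genes with the smallest p are named, and CDK4 is given beside CDK6. Promoters were matched by symbol to RefSeq. Alternatives covered filtering, variance prior, centring, normalization, array weights, replicate block, each array left out, all probe sets, no moderation and the mean of probe sets.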

Additional observations from a re-analysis of the deposited data

How the results depend on the processing

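Across 15 alternatives, 0 members and 0 other pathway genes were called. The lowest adjusted p of any member was 0.0976, for CCNE1 in an ordinary t-test without variance moderation. With a trended, robust variance prior the limma adjusted p of CCNE1 was 0.113, and its highest was 0.657 in limma over all probe sets. Of the 15 alternatives, 6 leave every member's log2 change as it was and could alter only its p. Under the 9 that alter it, 27 of the 43 members kept their direction throughout and 16 did not. Over all named probe sets 9 were called, 22 without the dimmest 40%, 91 with a trended, robust variance prior, 5 without variance moderation and 2 to 3 with each array left out. Same-numbered arrays of the groups deviated together at r = 0.0085 to 0.037, and differently numbered arrays at r = -0.052 to 0.020. Not every array correlated best with its own number. These values do not settle whether the replicate numbers pair the arrays. Blocking on the replicate number (replicate block), limma called 1 named probe set and 0 members. The change of CCNB1 turned to -0.0043 after median centring and -0.0090 after a repeated quantile normalization, and ran from -0.071 to 0.085 with each array left out. That of FOXM1 turned to -0.013 after a repeated quantile normalization and ran from -0.022 to 0.038. With each array left out, the median change ran from -0.018 to 0.018 for the G1/S genes and from 0.012 to 0.076 for the G2/M genes. Without CCND1 the G1/S median and without CCNA2, CDK1, TOP2A and MKI67 the G2/M median moved by less than the spread between arrays. The cause of these shifts was not tested. Slides and scan dates were not used here, so batches were not tested.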
